A study of Mus musculus with 3 samples.

Results

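The FACIT collagens (fibril-associated collagens with interrupted triple helices) were read out of the transcriptome of wounded mouse primary fibroblasts. The family was taken as the genes Col9a1, Col9a2, Col9a3, Col12a1, Col14a1, Col16a1, Col19a1, Col20a1 and Col22a1, matched by name, and all 9 were among the 43472 rows of the table, of which 20322 had reads. The cells were fibroblasts grown out of C57BL/6 tail tips, scratched in culture and given the soluble micrograft (MG), a cell-free extract of minced mouse skin, together with the MEK inhibitor PD0325901 for 5 h. The 3 libraries are labelled replicates 1, 2 and 3 of this single condition. The labels do not say whether they came from separate mice, so technical and biological spread between them cannot be told apart. Untreated and MG-only cultures were not analysed here, so the levels are described between replicates and no effect of MG or of the inhibitor was computed.

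FACIT collagens do not build fibrils on their own. They lie on the surface of fibrils made by the fibrillar collagens, with short triple-helical stretches along the fibril and large non-collagenous domains that reach into the surrounding matrix. Collagen IX coats the type II fibrils of cartilage, collagens XII and XIV decorate type I fibrils in skin, tendon and ligament, and collagen XXII is known from the junction of muscle and tendon.

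The values are normalized counts, the reads on each gene divided by 1 size factor per library, and the reads recovered from them summed to between 17244505 and 27037783 per library. Genes reaching 10 normalized counts in each of the 3 libraries are called detected, as were 60.1% of the genes with reads. A count of 0 allows up to 3 reads, equal to between 2.11 and 3.56 normalized counts depending on the library. Such limits and the intervals below cover counting error only. Replicate 2 stood apart over the whole transcriptome, with 10.1% of 13154 genes (mean of 10 or more) beyond 2-fold of both other libraries, 5.2% above and 4.87% below. For replicate 1 it was 4.26% (2.29% above, 1.97% below) and for replicate 3 it was 3.58% (1.28% above, 2.3% below). The cultures carried fibroblast markers, as 8 of 8 listed genes were detected and the intermediate filament gene Vim stood at 85416, 94183 and 104067 normalized counts. In replicate 2, 2 of these 8 were more than 2-fold below both other libraries, against 4.87% of all genes, and 0 were above. They were Lum, with 5073, 289 and 1164 in replicates 1, 2 and 3, and Dcn, with 3661, 1723 and 3659.

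Several members of the family shared a chromosome, at distances from a few kb to many Mb. Col9a1 and Col19a1, on opposite strands of chromosome 1, were separated by 9.21 kb at their 3′ ends (GENCODE M21, GRCm38), and Col9a3 and Col20a1 by 364 kb on the same strand of chromosome 2. Col9a2 and Col16a1 were both on chromosome 4 at a distance of 8.99 Mb, and Col14a1 and Col22a1 both on chromosome 15 at 16.3 Mb, while Col12a1 was alone on chromosome 9.

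Promoter sequence was read for the 5 members found in the RefSeq table (GRCm38.p6), and the windows of Col16a1, Col20a1 and Col9a1 are shown because RefSeq and GENCODE place their start at the same base and because they span the range from abundant to barely read. Each holds the 250 bases before the start, on the plus strand, with capitals marking matches, on either strand, to the TATA box (TATAAA), the CCAAT box (CCAAT), the GC box (GGGCGG) or the AP-1 element (TGANTCA).
Col16a1, chr4:130047590-130047839: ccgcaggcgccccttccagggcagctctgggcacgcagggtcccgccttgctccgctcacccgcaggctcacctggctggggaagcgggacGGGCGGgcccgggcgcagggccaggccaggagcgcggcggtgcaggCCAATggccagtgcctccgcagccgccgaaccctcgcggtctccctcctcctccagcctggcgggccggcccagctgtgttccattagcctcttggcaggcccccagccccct
Col20a1, chr2:180986285-180986534: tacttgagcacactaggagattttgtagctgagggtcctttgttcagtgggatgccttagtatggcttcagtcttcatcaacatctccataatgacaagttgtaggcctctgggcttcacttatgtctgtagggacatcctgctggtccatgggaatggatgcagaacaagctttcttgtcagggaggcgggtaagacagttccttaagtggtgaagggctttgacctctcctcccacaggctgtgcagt
Col9a1, chr1:24177360-24177609: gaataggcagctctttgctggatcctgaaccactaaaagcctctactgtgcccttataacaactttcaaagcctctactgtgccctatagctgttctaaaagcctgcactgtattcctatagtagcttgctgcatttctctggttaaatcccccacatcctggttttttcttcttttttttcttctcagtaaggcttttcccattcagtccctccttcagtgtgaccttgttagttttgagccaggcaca

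The Col16a1 window was GC-rich, with 75.6% G or C and 21 CpG, and held the CCAAT box at 113 and the GC box at 159 bases before the start. Over all 32851 windows of the same length the medians were 52.4% and 6 CpG, and 33.8% held the CCAAT box, 32.7% the GC box, 12.4% the TATA box and 6.75% the AP-1 element. The Col20a1 window had 49.2% G or C and 1 CpG, and the Col9a1 window shown had 43.6% and 0 CpG, both without a match to any of these letters. A second Col9a1 window (chr1:24194953-24195202), whose start lies 17593 bases from that of GENCODE, had 56.0% G or C and 0 CpG. It held a CCAAT box 18 bases before its start. None of the 6 windows of the 5 members held the AP-1 element or the TATA box, which says only that these letters are not in these 250 bases. Col9a3, Col12a1, Col14a1 and Col22a1 had no entry.

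Collagen XII and collagen XVI were the FACIT collagens expressed in all 3 cultures at a high level. Col12a1 reached 15100.4, 24558 and 17164 normalized counts in replicates 1, 2 and 3, and Col16a1 reached 3062, 4488 and 3945. Col20a1 was the only other detected member, far lower, and the remaining 6 genes were under 10 normalized counts in at least 1 library. Thus 3 of 9 members were detected, although 8 of 9 had at least 1 read in every library. Col9a3 missed the limit narrowly, at 9.86 in replicate 2, and scaling the libraries to equal totals gave 4 detected members. Together the 9 genes took 0.0935%, 0.161% and 0.104% of the reads of replicates 1, 2 and 3. In such bulk libraries, fewer cells with a transcript and less of it per cell cannot be told apart.

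**Figure D1:**
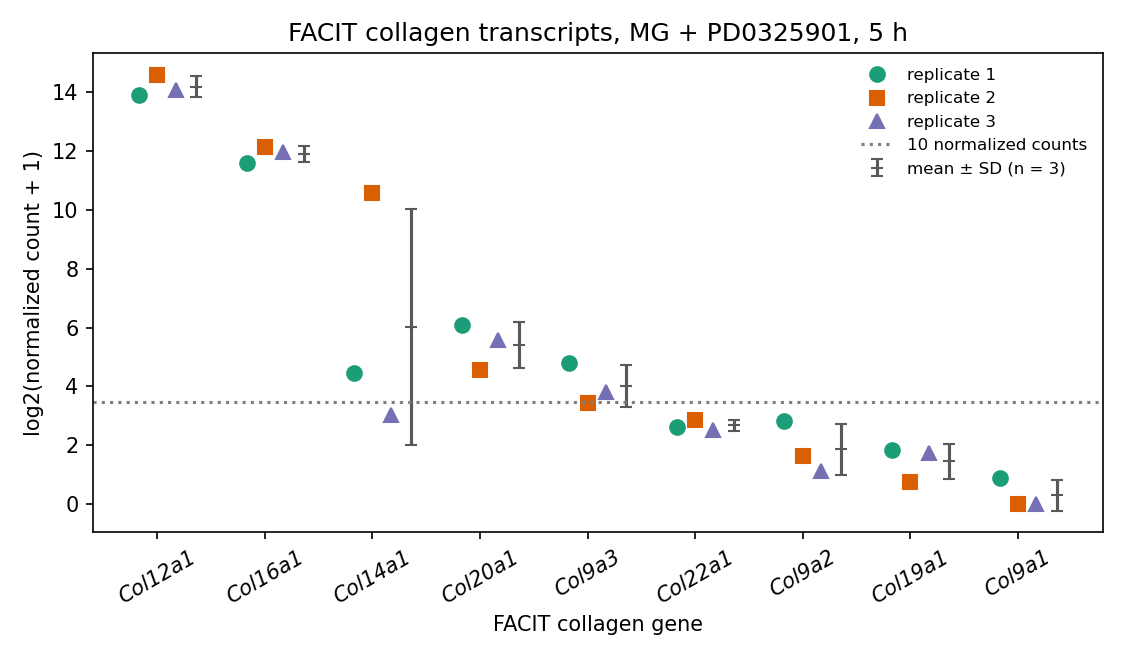
Levels of the 9 FACIT collagen genes as log2(normalized count + 1) in each library, ordered by mean normalized count, with the mean ± SD of the log2 values (n = 3) beside the points and a dotted line at 10 normalized counts. Col12a1 and Col16a1 lie far above the line in every library, Col14a1 does so in replicate 2, and the 4 genes at the right lie under it throughout.

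Col12a1 (chromosome 9, 79598991 to 79718831, minus strand, GRCm38) encodes the single chain of collagen XII, a homotrimer that links type I fibrils with other matrix proteins. Its mean was 18941 ± 4973 normalized counts (SD, n = 3), rank 124 of all genes, with 99.4% of genes with reads below it. That rank is by count and favours long genes. Per kb of exons its rank was 779 among the 11620 detected genes with a length. Replicate 2 was 1.63-fold above replicate 1 (95% exact interval 1.60 to 1.66) and 1.43-fold above replicate 3 (1.40 to 1.46). Replicate 3 was 1.14-fold above replicate 1 (1.11 to 1.16), so that the libraries did not lie within counting error of each other. The SD of log2(normalized count + 1) was 0.36, larger than that of 61.3% of the 12204 detected genes, whose median was 0.30.

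Col16a1 (chromosome 4, 130047840 to 130099283, plus strand) encodes the chain of collagen XVI, a homotrimer found near fibrillin microfibrils and small fibrils of the skin. Its mean was 3832 ± 720.0 normalized counts (SD, n = 3), rank 926 by count and rank 1681 per kb among the detected genes with a length. The libraries had the same order as for Col12a1, with replicate 2 the highest, 1.47-fold above replicate 1 (95% exact interval 1.41 to 1.53) and 1.14-fold above replicate 3 (1.09 to 1.19). The SD of log2 values was 0.28, larger than that of 46.3% of detected genes. Among all detected genes 40.6% were likewise highest in replicate 2, 31.5% in replicate 1 and 27.9% in replicate 3.

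Per length, collagen XII remained the leading member, with collagen XVI next in every library. Division by the exonic length of each gene gave 1244 ± 327 normalized counts per kb for Col12a1 and 568 ± 107 for Col16a1 (SD, n = 3). Col12a1 per kb was 2.19, 2.43 and 1.93 times Col16a1 in replicates 1, 2 and 3, and the ranges of the genes did not overlap, as the lowest Col12a1 library had 992 and the highest Col16a1 library 665 per kb. Of the summed FACIT level per kb, Col12a1 made up 65.7 ± 1.52% and Col16a1 30.4 ± 3.66% (SD, n = 3). Without division by length the shares were 81.3% and 16.7%, since Col12a1 has 15.2 kb of exons and Col16a1 6.75 kb.

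**Figure D2:**
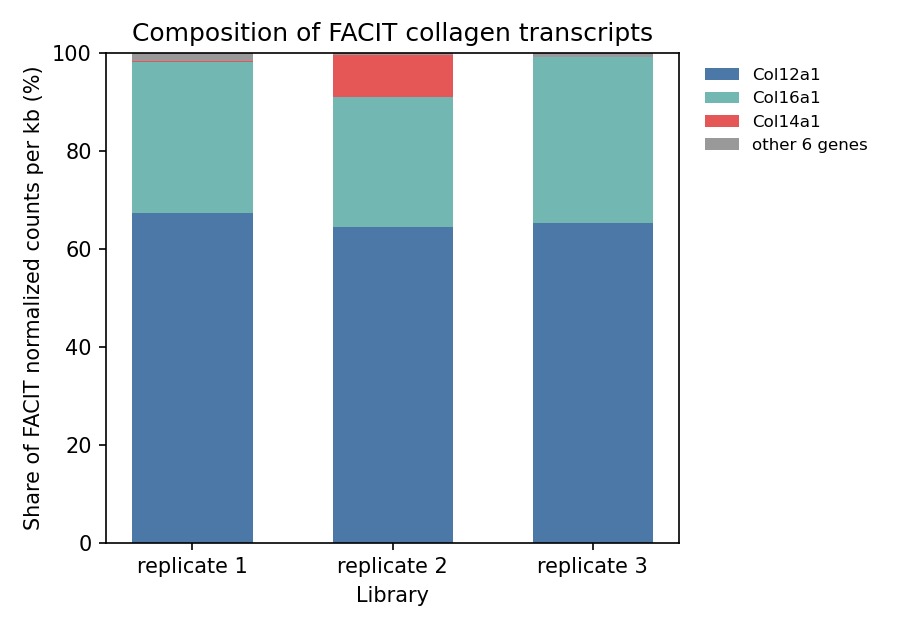
Share of each gene in the summed normalized counts per kb of the 9 FACIT collagen genes, 1 bar per library, in percent. Col12a1 takes between 64.4% and 67.4% in each bar, and Col14a1 is visible in replicate 2 with 8.66%, against 0.202% in replicate 1 and 0.0587% in replicate 3.

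Collagen XIV differed between the libraries by more than any other member with a mean of 10 or more. Col14a1 (chromosome 15, 55307750 to 55520803, plus strand), whose product sits on type I fibrils and limits their lateral growth, had 20.8, 1519.8 and 7.11 normalized counts in replicates 1, 2 and 3. These rested on 24, 2157 and 6 reads. Replicate 2 was thus 72.9-fold above replicate 1 (95% exact interval 48.9 to 114) and 214-fold above replicate 3 (98.0 to 583), while replicates 1 and 3 differed 2.93-fold (1.17 to 8.77, two-sided exact binomial test, adjusted p = 0.0313). The mean of 516 ± 869 normalized counts (SD, n = 3) describes none of the cultures, and without replicate 2 it was 14.0.

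In replicate 2 collagen XIV per kb reached 13.4% of collagen XII, with 217 against 1613 normalized counts per kb. In replicates 1 and 3 it was 0.300% and 0.0900%. It ranked 3 of 9 members per kb in replicate 2 and 5 of 9 in the other libraries, below Col20a1 and Col9a3.

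**Figure D3:**
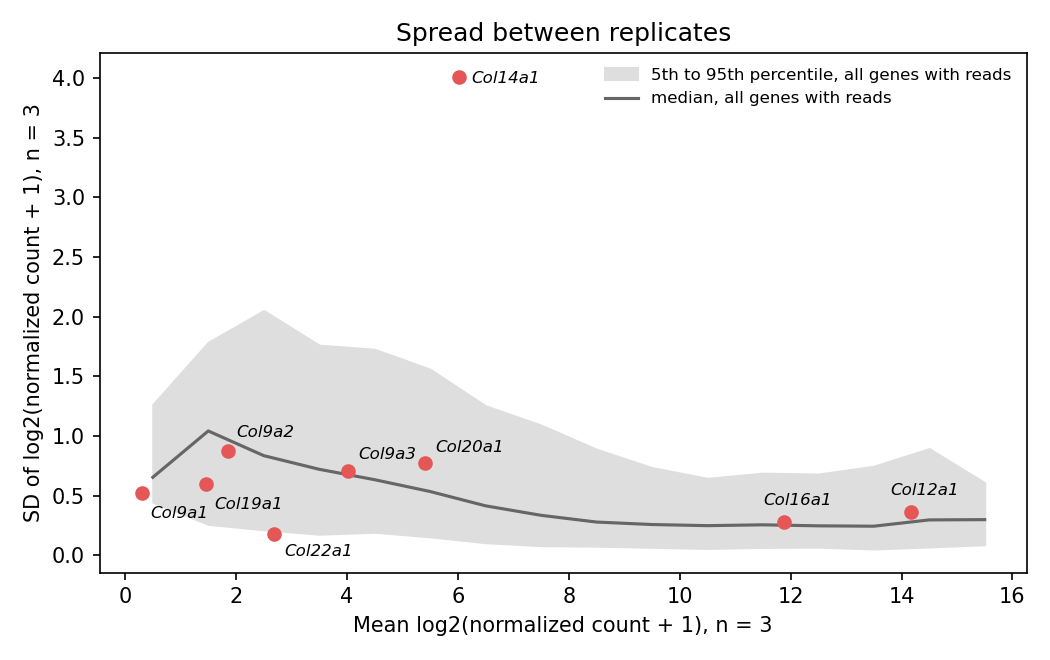
SD against mean of log2(normalized count + 1) over the 3 libraries for the 9 FACIT collagen genes, with the median and the 5th to 95th percentile of all genes with reads in bins of 1 log2 unit. Col14a1, with an SD of 4.01, lies far above the band, Col12a1, Col16a1 and Col20a1 lie inside it just above the median line, and Col22a1 lies just below the band.

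The genes whose pattern over the libraries was most like that of Col14a1 were looked up by the distance between centred log2 values over the same 13154 genes. The nearest was Cadm4, a cell adhesion gene, at a distance of 0.17, with 6.95, 648 and 2.37 normalized counts in replicates 1, 2 and 3. It was followed by the nuclear receptor gene Nr2f1 at 0.80, with 1.74, 95.1 and 0, and by the phosphodiesterase gene Pde8b at 0.86, with 5.21, 306 and 0. Phyhipl at 1.23, with 2.61, 77.5 and 0, and the neurofilament gene Nefm at 1.26, with 8.68, 266 and 3.56, came next. Each was near the floor in replicates 1 and 3 and reached the mean of 10 only through replicate 2, where Col14a1 was high. Such likeness over 3 libraries is a description. With a pseudocount of 10 in place of 1, 2 of these 5 genes were still among the nearest.

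Col12a1, by the same measure, had many near neighbours, the closest being Zfp81 at 0.0099 and Trim44 at 0.012. Zfp81 had 99.9, 163 and 113 normalized counts and Trim44 1375, 2249 and 1581. Nup153, Atp6v1g2 and Prmt1 followed within 0.017. Neither collagen genes nor matrix genes were among these 5, but 5 of 13154 genes are too few to read anything from that. With a pseudocount of 10, 2 of them remained among the nearest.

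Col20a1 (chromosome 2, 180986535 to 181018363, plus strand), the gene of the little-studied collagen XX, was low but present. Its levels were 66.9, 22.5 and 46.2 normalized counts in replicates 1, 2 and 3, from 77, 32 and 39 reads, and a mean of 45.2 ± 22.2 (SD, n = 3). Replicate 2 was the lowest, 2.97-fold below replicate 1 (95% exact interval 1.94 to 4.63, exact binomial test, adjusted p = 1.65e-07) and 2.05-fold below replicate 3 (1.25 to 3.38, adjusted p = 0.00564), opposite to Col12a1, Col16a1 and Col14a1. Replicates 1 and 3 differed by 1.45-fold (0.972 to 2.18, adjusted p = 0.104), which did not pass the test. The SD of its log2 values, 0.78, was larger than that of 90.8% of detected genes.

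The genes of collagen IX were low, and Col9a1 lay under the floor. Col9a3 had 26.9, 9.86 and 13.04 normalized counts in replicates 1, 2 and 3, Col9a2 had 6.08, 2.11 and 1.19, and Col9a1 had 0.868, 0 and 0, a single read in replicate 1. Col9a3 lies at 180597790 to 180622189 on chromosome 2, Col9a2 at 121039385 to 121055322 on chromosome 4 and Col9a1 at 24177610 to 24252684 on chromosome 1, each on the plus strand. Their products join into 1 heterotrimer. Per kb, Col9a3 had 4.31 ± 2.35 and Col9a2 1.01 ± 0.840 normalized counts (SD, n = 3), while the order of Col9a1 and Col9a2 is not determined at this depth, since a count of 0 allows up to 3 reads. Replicate 1 held the most reads of each. For Col9a3 it was 2.73-fold above replicate 2 (95% exact interval 1.41 to 5.55, exact binomial test, adjusted p = 0.00251) and 2.06-fold above replicate 3 (1.01 to 4.55, adjusted p = 0.0751). For Col9a2, with 7 and 3 reads, the difference between replicates 1 and 2 was not detectable at this depth (adjusted p = 0.161). Exons of Col9a3 share 234 bases with Tcfl5 on the opposite strand, which had 50.4, 104 and 75.9 normalized counts, and the strand setting of the counting was not given in the sources used here, so reads of these genes may have been assigned differently.

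Cartilage markers were read beside collagen IX. Of the chondrocyte list, 11 of 12 genes were in the table and 6 were detected, and the list summed to 13497, 1487 and 3094 normalized counts in replicates 1, 2 and 3. Most of the first sum was Col2a1, the fibrillar collagen that collagen IX coats in cartilage, with 11538, 229 and 833. The other detected genes of the list were lower. Hapln1 had 618, 253 and 933, and Col10a1 had 971, 773 and 779. Sox9 had 171, 149 and 117, Sox6 115, 35.9 and 300, and Sox5 59.9, 35.2 and 85.3. Matn1 and Chad, further cartilage matrix genes, were at 0 in each library, and Acan, the main cartilage proteoglycan, had 4.34, 0 and 36.7. The part of such transcripts in the Col9a2 and Col9a3 levels was not tested.

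Col19a1 (chromosome 1, 24261890 to 24587472) and Col22a1 (chromosome 15, 71795795 to 72034227), both on the minus strand, stayed at a few reads. Col19a1 had 3, 1 and 2 reads in replicates 1, 2 and 3, and Col22a1 had 6, 9 and 4 reads, or 5.43 ± 0.823 normalized counts (SD, n = 3). Replicates 1 and 2 differed by 1.22-fold for Col22a1 with an exact interval from 0.387 to 4.16, so a difference within these bounds was not detectable at this depth. With Acta1 detected at 2429, 7286 and 5586 normalized counts but Myod1 at 0 in all libraries and Myog at 0 in 2 of them, 2 of 6 skeletal muscle markers were detected.

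Between pairs of libraries, calls among the members were about as frequent as among all genes. The exact binomial test, two-sided and adjusted by Benjamini-Hochberg over every gene whose 2 libraries held 10 reads or more in sum, compares libraries and not conditions. Of 7 members tested between replicates 1 and 2, 5 were called, against 69.1% of all genes tested. Of these, 3 were higher in replicate 2 (36% of all genes) and 2 in replicate 1 (33.1%). Between replicates 1 and 3 it was 3 of 6, against 52%, with 2 higher in replicate 3 (26.5%) and 1 in replicate 1 (25.5%). Between replicates 2 and 3 it was 4 of 6, against 62.6%, with 1 higher in replicate 3 (30.5%) and 3 in replicate 2 (32.1%). Calls that also passed 2-fold numbered 3, 1 and 2, against 20.6%, 9.4% and 16.6% of all genes. Members more than 2-fold from both others were counted on the log2(normalized count + 1) scale, among the 5 with a mean of at least 10. Replicate 2 had 2, Col14a1 above and Col20a1 below, against 10.1% of all genes with such a mean. Replicate 3 had Col14a1 below, against 3.58% of these genes in either direction, and replicate 1 had 0, against 4.26%. The place of Col14a1 in replicate 3 rests on 6 reads against 24 in replicate 1 and was lost with a pseudocount of 10. Col20a1 was just past this limit and fell inside it with a pseudocount of 10 or when libraries were scaled to equal totals.

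The fibrils that FACIT collagens coat were represented by all 11 fibrillar collagen genes, each of them detected. Col1a1, the main chain of type I collagen, had the highest level, 28333 ± 7951 normalized counts per kb, followed by the type V chain gene Col5a2 with 14038 ± 4397 (SD, n = 3). Col12a1 per kb was 4.13%, 6.87% and 3.00% of Col1a1 in replicates 1, 2 and 3. The 9 FACIT genes together had 1471, 2503 and 1726 normalized counts per kb, equal to 2.80%, 4.70% and 2.15% of the fibrillar sum. Replicate 2 thus held the highest ratio, and replicate 3, with the highest fibrillar sum of 80131 per kb, the lowest. Without replicate 2 the mean ratio was 2.48%, against 3.22 ± 1.32% with it (SD, n = 3).

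**Figure D4:**
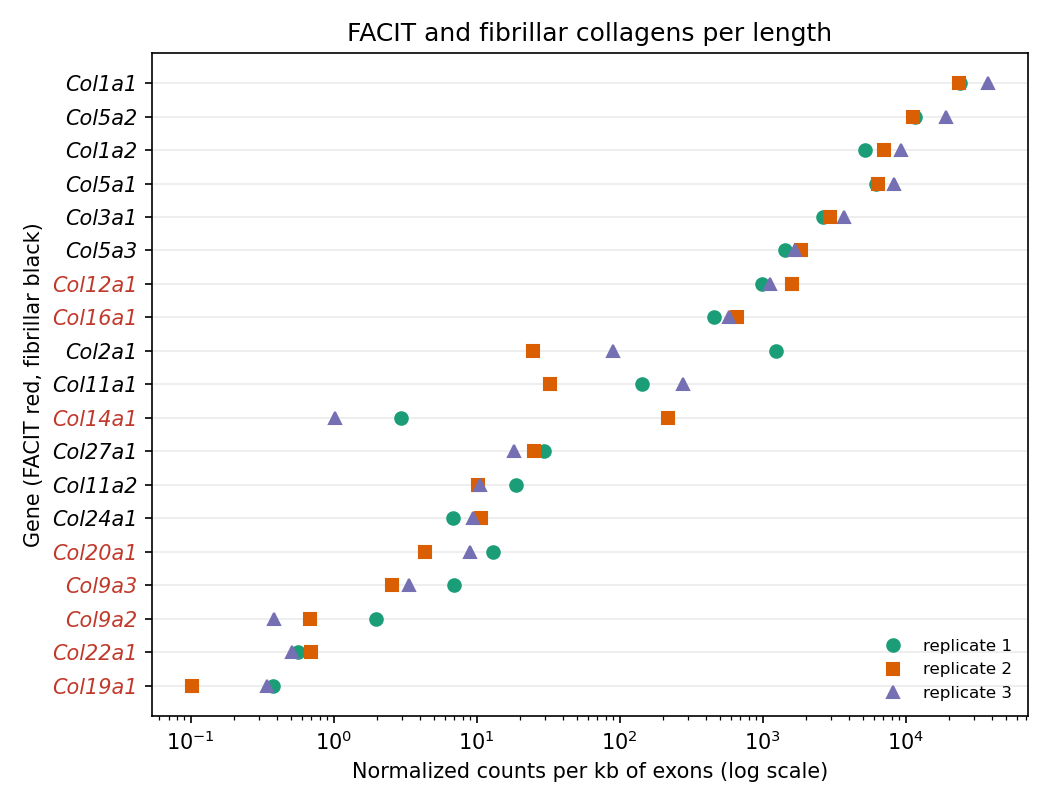
Normalized counts per kb of exons, on a log axis, for the FACIT (red) and fibrillar (black) collagen genes with reads in every library, 1 symbol per replicate, ordered by mean. Col12a1 and Col16a1 lie above the other FACIT genes in every library, and Col14a1 spans 214-fold between replicates 2 and 3 (Col9a1, at 0 in 2 libraries, is not drawn).

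Among the fibrillar genes, Col2a1 and Col11a1, 2 of 11, were more than 2-fold below both other libraries in replicate 2, against 4.87% of all genes, and 0 were above. Col11a1, a partner of type II collagen, had 1835, 415 and 3514 normalized counts in replicates 1, 2 and 3. Between replicates 1 and 2, 5 of 11 fibrillar genes were called higher in replicate 2 (36% of all genes tested) and 6 lower (33.1%), of which 0 and 2 passed 2-fold (20.6% of all genes in either direction). The median log2 ratio of replicate 2 to the others was -0.15 over these genes, against 0.03 over all detected genes.

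Genes of matrix proteins known to bind FACIT collagens or to share the fibril surface with them went both ways. Tnxb, which encodes tenascin-X, a binding partner of collagens XII and XIV, had 174, 484 and 130 normalized counts, and replicate 2 was 2.79-fold above replicate 1 (adjusted p = 2.44e-42) and 3.71-fold above replicate 3 (adjusted p = 3.92e-48) by the exact binomial test. It was picked for this binding after its values were seen. Comp, of the same list, went the other way, with 2900, 387 and 3082. Fn1, the fibronectin gene, had the highest level of the list, with 136151, 118311 and 232677. Fmod, the gene of the fibril-binding proteoglycan fibromodulin, had 9346, 762 and 10075, and Lum, that of lumican, had 5073, 289 and 1164. Of 11 such genes tested between replicates 1 and 2, 1 was called more than 2-fold higher in replicate 2 and 5 more than 2-fold lower, where 20.6% of all genes tested were called beyond 2-fold in either direction. Their median log2 ratio of replicate 2 to the others was -0.59.

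All 8 genes of the machinery that folds and trims collagen chains were detected. Serpinh1, the collagen chaperone HSP47, had 39670.1, 39992 and 42390.0 normalized counts in replicates 1, 2 and 3. Bmp1, a procollagen protease, was highest in replicate 2, with 4593, 9800.4 and 5015, and Plod2, a lysyl hydroxylase, lowest there, with 12376, 5839 and 10952. The median SD of log2 values of this list was 0.30, equal to that of all detected genes. Of 7 collagen receptor genes 6 were detected, with Itgb1, the shared integrin beta chain, at 38486 ± 3137 (SD, n = 3), Ddr2, a receptor for fibrillar collagen, at 3944, 9665 and 4768, and Itga11 at 3498, 1364 and 3510.

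Markers of other cell types are given beside Col14a1. In the interstitial fibroblast list, 5 of 8 genes were detected and the summed level was 12066, 37291 and 10749 normalized counts in replicates 1, 2 and 3. Thy1, a fibroblast surface gene, had 2031, 15760.0 and 1652 and Ly6a had 6226, 15468 and 5990.4, while Cd34 was lowest in replicate 2, with 259, 187 and 591, and Clec3b was at 0 there. The tendon list had 5 of 6 genes detected and sums of 14041, 4021 and 12205. Fmod, at 9346, 762 and 10075, made up most of the sums of replicates 1 and 3. Scx, its defining transcription factor, had 2470, 168 and 1381. Thbs4, with 1957, 2916 and 469, was highest in replicate 2 and lowest in replicate 3, and Tnmd had 124, 127 and 107. The skeletal muscle sum was 2643, 8494 and 5668, most of it Acta1 with 2429, 7286 and 5586. Des had 212, 1208 and 77.0, and no other gene of this list was detected.

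**Figure D5:**
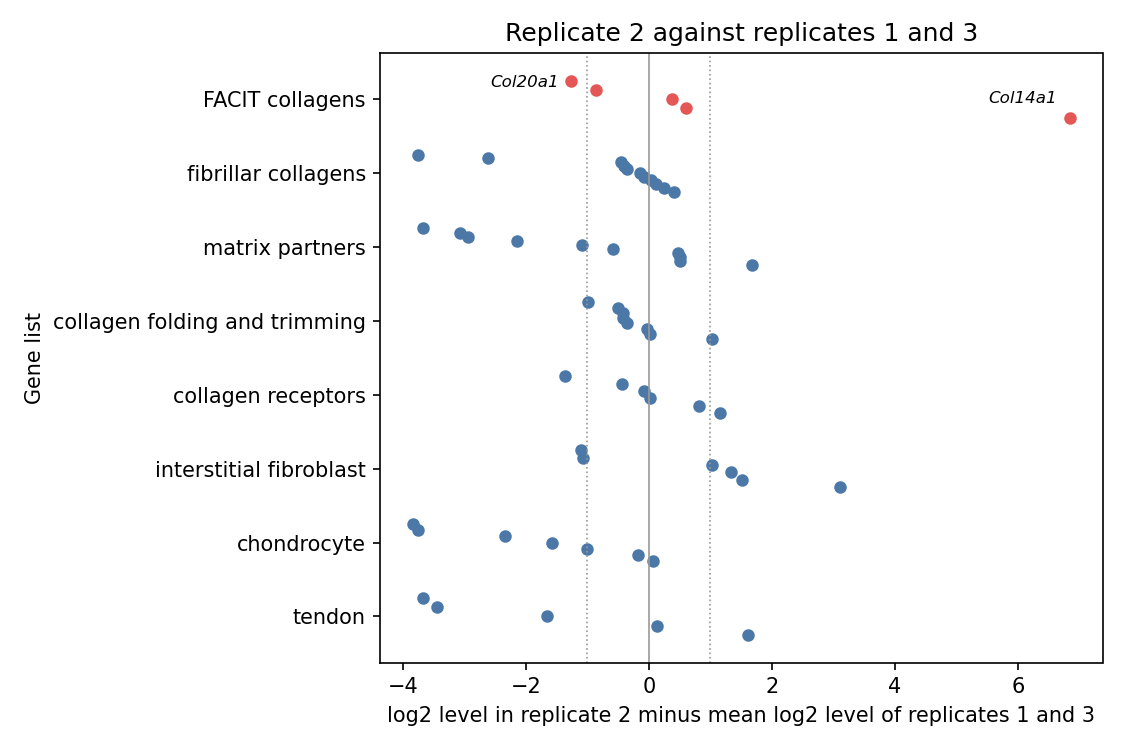
Difference between the log2(normalized count + 1) of replicate 2 and the mean of replicates 1 and 3 for genes with a mean of at least 10, 1 point per gene and 1 row per list, with dotted lines at 2-fold. Col14a1 lies at 6.84, and 4 of 7 chondrocyte and 3 of 5 tendon genes were more than 2-fold below both other libraries, against 4.87% of all genes.

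Other lists were low in all libraries. The endothelial sum was 90.3, 244 and 55.7 normalized counts with 1 of 5 genes detected, Tek standing at 6.95, 185 and 2.37, and Cdh5 was at 0 in replicates 1 and 2. Keratinocyte markers summed to between 34.4 and 81.6, with Krt1 and Krt15 at 0 in each library, and leukocyte markers to between 14.1 and 68.7, with 0 of 5 detected. Schwann cell markers summed to between 59.9 and 151. The part of any of these cells in the Col14a1 level was not tested.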

How the data were processed

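RNA was sequenced from 3 libraries, the replicates of fibroblasts given MG + PD0325901 for 5 h. Per the submitters' notes and methods, reads were aligned to mm10 with TopHat2 2.0.13 and counted per gene with HTSeq 0.5.3p3. The gene annotation and strand setting were not given in the sources used here. The authors deposited a signal per gene and library, the read count over a size factor, which came to 1.15, 1.42 and 0.844 for replicates 1, 2 and 3. Another 3 columns match no sample label and stayed out. Dividing by the value of 1 read gave whole numbers (tolerance 0.01) for 100% of the values and so returned the reads.

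Means and SDs are of normalized counts, and log2 was taken after adding 1. Libraries were compared in pairs by two-sided exact binomial tests on the recovered reads, for every gene with 10 reads or more in the pair, adjusted by Benjamini-Hochberg at 0.05. With 1 condition, no count model between groups could be fitted. Read ratios carry exact 95% intervals. Exonic lengths and positions came from GENCODE M21 (GRCm38, the build of mm10), with a length for all 96 listed genes in the table and 95.2% of detected genes. The text names all 9 members, the 5 genes nearest to Col14a1 and to Col12a1 by centred log2 distance, and up to 4 genes of each list. These were taken by highest mean, largest range between libraries or a defining role, with Tnxb picked after its values were seen. Dcn, Comp, Tnmd and the remaining detected chondrocyte genes are named besides. Members and lists were chosen with earlier results of these data known. Rows with names turned into dates (27) held 0.231% of reads. Steps were tested on simulated data. Alternatives were other scalings (TMM by edgeR 4.0.16 in R 4.3.3, equal totals), pseudocounts, minimums, fold limits and lengths, and each replicate left out. Python 3.11.15, numpy 2.4.6, scipy 1.17.1 and pandas 2.3.3 were used.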

Additional observations from a re-analysis of the deposited data

How the results depend on the processing

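No paired analysis was possible because all samples were of 1 condition. Of the 9 members, 8 had a read in every library and 5 had a mean of at least 10, against 3 detected, by construction of the looser minimums. With equal totals 4 were detected, and with a replicate left out between 3 and 4 were. Requiring more than 2-fold lowered the members called to 3 between replicates 1 and 2, 1 between replicates 1 and 3 and 2 between replicates 2 and 3. Members apart from both others were 1 for replicate 1 at 1.5-fold, without a minimum and with equal totals, against 0. The member was Col9a2 without a minimum and Col9a3 in the other settings. For replicate 2 they were 1 with a pseudocount of 10, with a mean of at least 100 and with equal totals, against 2, as Col20a1 no longer counted, and for replicate 3 they were 0 with a pseudocount of 10, against 1. Without division by length the shares were 81.3% for Col12a1 and 16.7% for Col16a1. With a pseudocount of 10, 2 of the 5 genes nearest to Col14a1 and 2 of those nearest to Col12a1 remained. The ratio of the highest to the lowest library was 214 for Col14a1, 2.93 without replicate 2 and 72.9 without replicate 3, for Col20a1 1.45 without replicate 2, against 2.97, and for Col9a3 1.32 without replicate 1, against 2.73, chosen after seeing the data. Leaving out replicate 2 lowered the mean of Col14a1 from 516 to 14.0. Leaving out replicate 1 lowered that of Col9a2 from 3.13 to 1.65 and that of Col9a1 from 0.289 to 0. Each shift was less than 1 SD, which holds for any gene when 1 of 3 libraries is left out and says nothing on stability. TMM changed none of the counts of members. Depth limited Col9a1, Col9a2, Col19a1 and Col22a1, with at most 9 reads in a library.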
